A study of Mus musculus with 2 samples.

Results

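The replication-dependent histone genes of the mouse sit in 4 genomic clusters named Hist1, Hist2, Hist3 and Hist4, and their RNA was measured here in adult gastrocnemius, the large calf muscle. The members were the genes with a protein-coding transcript whose symbol begins with Hist1h, Hist2h, Hist3h or Hist4h. This gave 67 genes of the 55536 genes in the deposited tables, and left out 3 of the 70 symbols of that form because they are annotated as pseudogenes. The members divide into 6 H1, 18 H2A, 18 H2B, 12 H3 and 13 H4 genes.

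Total RNA was sequenced from gastrocnemius of female adult mice of 8 to 10 months, whose strain is labelled 5xFAD X Cast and, in another field, 5xFAD/CAST. 5xFAD is a transgenic mouse model of Alzheimer disease driven by the Thy1 promoter, which is used for expression in neurons, and Cast is an inbred strain from the castaneus subspecies; the labels do not say whether the animals carried the transgene. Each library started from 300 ng of RNA, with ERCC spike-in RNA added, and the labels name a directional kit and a profile for ribosomal RNA-reduced libraries. There were 2 libraries of this 1 group, numbered as biological replicates, with no second genotype, age, sex or tissue. The labels give the libraries separate biosamples but the same donor entry, so the spread between them may be partly technical. With 2 libraries an exact two-sided sign-flip test cannot go below p = 0.5, so levels and differences are described with their spread and no test is reported.

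The gene tables held 35423706 and 34367627 estimated read counts in libraries 1 and 2, spike-ins aside. The muscle label was met by its markers: all 6 fibre genes were detected and summed to 57320 and 66179 TPM (a level corrected for transcript length and for depth), led by Acta1, the skeletal actin. None of the 4 lymphocyte markers reached 1 TPM, and 3 of those 4 were at 0 in at least 1 library. Markers of other cells were present. All 3 fibroblast, all 3 endothelial and all 3 erythroid genes were detected, at sums of 131.7, 32.7 and 165.7 TPM. Of 4 macrophage genes 2 were detected, and the 4 summed to 18.5 TPM. Of 3 satellite cell genes only Itga7 was detected, at 25.7 and 28.7 TPM. Pax7 had 0.2 and 0.58 TPM and Myf5 0.6 and 0.88 TPM. The part of these other cells in the histone levels was not tested. Levels below are those of the first of 2 deposited sets of values for the same reads, called the first quantifier, unless the second is named. In tissue RNA, few cells with much of a transcript and many cells with little of it cannot be told apart.

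Replication-dependent histone genes supply the core histones H2A, H2B, H3 and H4 and the linker histone H1 that package new DNA during S phase. Their short messages usually lack introns and, unlike other mRNAs, end in a conserved stem-loop bound by the protein SLBP instead of a poly(A) tail. Non-dividing cells such as muscle fibre nuclei are known to rely on replacement histone genes that lie outside these clusters and make polyadenylated messages, although some cluster genes also yield polyadenylated RNA in differentiated cells.

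The stem-loop is the sequence that marks these genes, and it is printed here for 1 gene of each of the 8 forms found in the annotated transcripts. A script searched downstream of each stop codon for GGNNNTTNTNANNNCC, with N any base, in the GENCODE M21 transcripts, and the 16 letters that matched are in capitals with 5 bases on each side.
Hist1h1c: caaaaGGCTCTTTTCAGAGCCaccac
Hist1h3e: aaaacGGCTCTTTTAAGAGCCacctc
Hist2h2ac: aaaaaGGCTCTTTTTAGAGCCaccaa
Hist1h3g: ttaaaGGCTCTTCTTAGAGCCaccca
Hist1h4h: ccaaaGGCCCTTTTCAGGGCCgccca
Hist1h4i: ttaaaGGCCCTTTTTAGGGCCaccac
Hist1h4b: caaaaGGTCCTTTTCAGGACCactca
Hist1h4a: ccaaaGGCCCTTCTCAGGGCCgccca

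A stem-loop of this form was found in 46 of the 67 members, 21 to 58 bases after the stop codon with a median of 31. The Hist1h1c form was the commonest, with 26 members from H1, H2A, H2B and H3 and no H4 gene. The Hist1h4h form was shared by 7 members, all of them H4 genes. The Hist1h3e form had 6 members, the Hist1h4i and Hist1h4b forms 2 members each, all 4 of these H4 genes, and the other 3 forms 1 member each. The forms of the H4 genes pair other bases in the stem than those of the H1, H2A, H2B and H3 genes, as a comparison of the printed sequences shows. Of the 21 members without the letters, 13 have gene models that stop at the stop codon, so the search window was empty for them. Among the others, Hist1h2af has 1 base and Hist1h2ah 2 bases after the stop codon, too few for the 16 letters. Hist2h3b has 37 bases there, which left little room for a match.

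Summed over the 67 members, histone cluster RNA came to 456 TPM in library 1 and 519.9 TPM in library 2, or 488 ± 45.2 TPM (SD, n = 2). This was 0.0492% ± 0.0046 of all gene TPM. As a share of the TPM of nuclear protein-coding genes it was 0.1166% in library 1 and 0.1165% in library 2. The second quantifier put the sum at 423.6 and 494.4 TPM. In counts the members summed to 11402 and 11151, and after scaling for depth the log2 ratio of library 2 over library 1 was 0.01, with a 95% exact binomial interval of -0.03 to 0.05. The interval covers counting error only.

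At 1 TPM or more in both libraries, 30 of the 67 members were detected, or 44.8%, against 44.5% of the 22015 nuclear protein-coding genes. A further 8 members reached 1 TPM in only 1 library, and 29 stayed below it in both. The median member had a mean of 1.16 TPM, against 0.59 TPM for the median nuclear protein-coding gene. Among the genes detected in both libraries the medians were 7.64 TPM for the members and 7.95 TPM for the nuclear protein-coding genes.

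RNA was unevenly spread over the members. The 5 highest, Hist1h1c, Hist1h4h, Hist2h2aa2, Hist1h4c and Hist1h2bc, held 59.1% of the members' TPM in library 1 and 57.1% in library 2, a mean of 58.1% ± 1.41 (SD, n = 2). Only 10 members averaged 10 TPM or more. The 5 highest include an H1 gene, an H2A gene, an H2B gene and 2 H4 genes, and the highest H3 gene ranked below them. By the second quantifier the 5 highest were Hist1h4h, Hist1h1c, Hist2h2aa2, Hist1h4m and Hist2h2aa1, with no H2B gene among them.

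**Figure D1:**
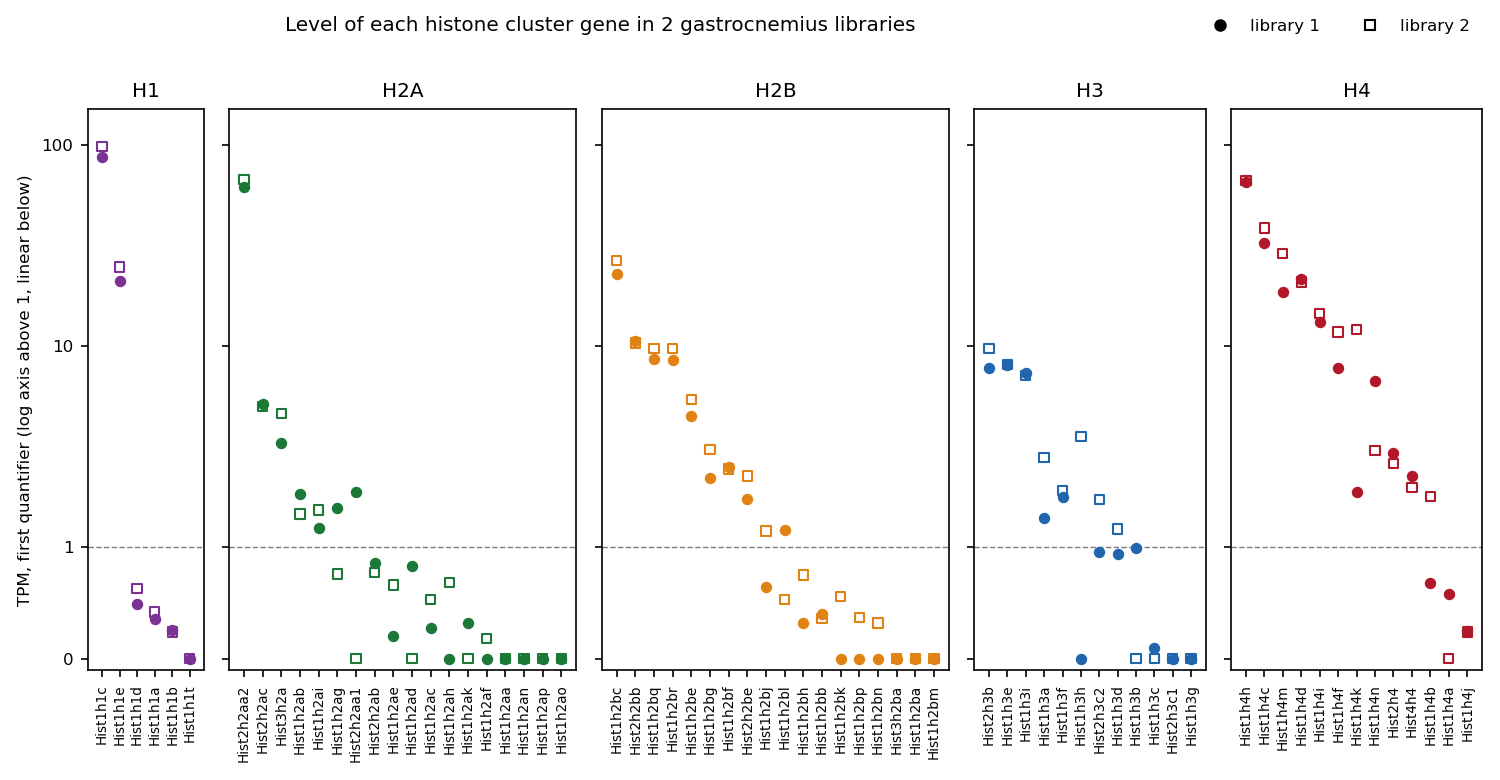
Level of each of the 67 members in TPM from the first quantifier, on an axis that is logarithmic above 1 and linear below, with library 1 as filled circles and library 2 as open squares. Each class falls away from 1 to a few high genes to genes at or near 0, and the dashed line marks 1 TPM, reached in both libraries by 30 members.

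The 6 linker histone genes held 24.0% of the members' TPM in library 1 and 23.8% in library 2, mostly through a pair of them. H1 proteins bind where DNA enters and leaves the nucleosome, and the mouse cluster encodes several subtypes of which Hist1h1c and Hist1h1e are known to be common in somatic tissue. Hist1h1c (chr13:23738808-23740367, + strand, mm10) was the highest member by the first quantifier, with 87.4 TPM in library 1 and 97.98 TPM in library 2. It ranked 541 among the 22015 nuclear protein-coding genes. By the second quantifier Hist1h1c and Hist1h4h were close, with means of 80.3 ± 8.56 TPM and 80.6 ± 1.53 TPM (SD, n = 2 each), and Hist1h4h was the higher of them in library 1. Hist1h1e had 21.03 TPM and 24.7 TPM. Both genes were close between the libraries in depth-scaled counts, with log2 ratios of -0.01 for Hist1h1c and 0.06 for Hist1h1e, each interval spanning 0. The remaining somatic genes were low in TPM, at 0.560 ± 0.099 for Hist1h1d, 0.39 ± 0.042 for Hist1h1a and 0.25 ± 0.014 for Hist1h1b (SD, n = 2 each). They differed in counts, with 109.2 and 121.6 for Hist1h1d, 7 and 7 for Hist1h1a and 5 and 4 for Hist1h1b. The TPM of Hist1h1d is set over an annotated transcript of 7425 bases, with 4884 of them after its stem-loop. Hist1h1t, the testis linker histone, had 0 counts in both libraries and by both quantifiers, although every 101-base stretch of its transcript occurs in no other gene. A count of 0 allows up to 3 counts in a library.

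The 13 H4 genes, which encode 1 identical protein, held the largest class share, at 38.2% of the members' TPM in library 1 and 39.0% in library 2. Of these genes 10 were detected in both libraries, and none was at 0 in both. Hist1h4h led with 65.1 and 66.4 TPM, followed by Hist1h4c with 32.7 and 38.6 TPM, Hist1h4m with 18.5 and 28.8 TPM and Hist1h4d with 21.6 and 20.8 TPM. The order of Hist1h4m and Hist1h4d therefore differs between the libraries. Hist1h4i had 13.2 and 14.6 TPM, and Hist1h4f 7.74 and 11.7 TPM. Outside the Hist1 cluster, Hist4h4, which lies alone on chromosome 6, had 2.25 TPM in library 1 and 1.98 TPM in library 2. The class summed to 188.4 ± 20.1 TPM by the first quantifier and 182.7 ± 23.9 TPM by the second (SD, n = 2 each).

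H2A, which pairs with H2B in the nucleosome, held 16.7% ± 0.884 of the members' TPM (SD, n = 2), and most of that came from a single locus. Hist2h2aa2 had 61.7 TPM in library 1 and 67.5 TPM in library 2, or 79.3% of the class on average. By the first quantifier the next H2A genes were far lower, at 5.07 ± 0.092 TPM for Hist2h2ac and 3.97 ± 0.933 TPM for Hist3h2a (SD, n = 2 each). The split between Hist2h2aa2 and Hist2h2aa1 rests on shared reads, as described further on. The second quantifier gave Hist2h2aa2 45.4 and 47.9 TPM and Hist2h2aa1 22.3 and 29.0 TPM. Only 5 of the 18 H2A genes were detected in both libraries and 4 had 0 counts in both. Hist1h2aa, a testis H2A gene, was among the 4, with a single count in library 1 by the second quantifier.

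H2B held 14.1% ± 0.095 of the members' TPM and was spread more widely, with 8 of 18 genes detected in both libraries. Hist1h2bc led with 22.7 TPM in library 1 and 26.6 TPM in library 2, which was 35.9% of the class on average. Hist2h2bb had 10.6 and 10.4 TPM, and Hist1h2bq and Hist1h2br each had 8.5 to 9.7 TPM in either library, values that rest on shared reads as described further on. Hist1h2ba, the testis H2B gene, had 0 counts in both libraries by both quantifiers. Hist3h2ba had 0 counts in both by the first quantifier and 1.15 counts in library 2 by the second.

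H3 was the lowest class, with 6.42% of the members' TPM in library 1 and 6.94% in library 2, although 5 of its 12 genes were detected in both. Hist2h3b led with 7.78 and 9.68 TPM, and Hist1h3e followed with 8.03 and 8.08 TPM, so that the spread of Hist2h3b spans the level of Hist1h3e. The 12 genes encode 2 proteins of the same length that differ at 1 residue. The 8 genes for the commoner protein summed to 20.6 and 22.6 TPM, and the 4 genes for the other, Hist1h3a, Hist1h3g, Hist1h3h and Hist1h3i, to 8.70 and 13.5 TPM. In the other classes the annotated reading frames give 6 different H1 proteins, 9 different H2A proteins and 11 different H2B proteins.

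Class shares depend on length. Without a correction for length, in expected counts, H1 held 45.5% ± 0.16 of the members' total, H4 26.2% ± 0.71, H2B 13.4% ± 0.512, H2A 10.4% ± 0.113 and H3 4.48% ± 0.151 (SD, n = 2 each). H1 and H4 therefore change places between counts and TPM, and so do H2A and H2B.

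The cluster genes share the classes H1, H2A and H3 with replacement genes, and the balance of their RNA in the tissue differed by class. For the linker histone the 6 cluster genes summed to 109.6 and 124 TPM, against 36.1 and 42.2 TPM for H1f0 and H1fx, of which H1f0, a linker histone of differentiated cells, made up nearly all. The cluster genes were thus 74.9% ± 0.432 of H1 TPM (SD, n = 2). For H2A the cluster genes summed to 79.1 and 83.7 TPM, against 89.0 and 94.8 TPM for 6 replacement genes led by H2afz, H2afy and H2afv, and held 47.0% ± 0.119 of the class. For H3 the cluster genes were lower still beside the replacement genes, with 29.3 and 36.1 TPM for the 12 cluster genes, against 135.7 and 146 TPM for H3f3a and H3f3b, the genes of the replacement histone deposited outside S phase. Cluster genes were 18.8% ± 1.46 of H3 TPM. In every one of these sums the 2 libraries gave the same order of cluster and replacement genes. The second quantifier gave cluster shares in libraries 1 and 2 of 74.2% and 73.0% for H1, 49.9% and 47.3% for H2A, and 15.8% and 17.6% for H3.

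**Figure D2:**
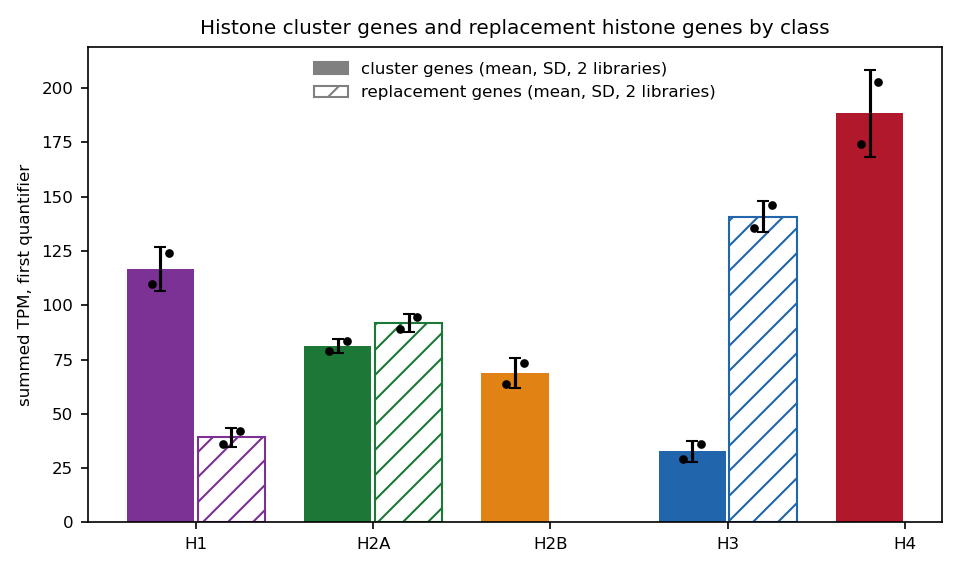
Summed TPM of the cluster genes (filled bars) and of the replacement genes (hatched bars) by histone class, as the mean of 2 libraries with SD and 1 point per library. Cluster genes exceed replacement genes for H1, fall a little below them for H2A and far below them for H3; no replacement gene was listed for H2B or H4.

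Cluster by cluster, Hist1 on chromosome 13 held 78.9% ± 0.877 of the members' TPM over 54 genes, Hist2 on chromosome 3 held 19.9% ± 0.913 over 10 genes, Hist3 on chromosome 11 held 0.808% ± 0.116 over 2 genes, and Hist4 on chromosome 6 held 0.437% ± 0.08 with its 1 gene (SD, n = 2 each). The Hist1 genes lie in 2 stretches. The one at higher coordinates (chr13:23531050-23934851) has 31 genes, and these summed to 286.7 TPM in library 1 and 318.5 TPM in library 2. The one at lower coordinates (chr13:21715763-22043676) has 23 genes, which summed to 70.2 and 94.9 TPM. Detected genes were 14 of 31 in the first and 8 of 23 in the second. High genes did not form a block: Hist1h1t at 0 counts lies between Hist1h2bc and Hist1h4c, both above 20 TPM.

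**Figure D3:**
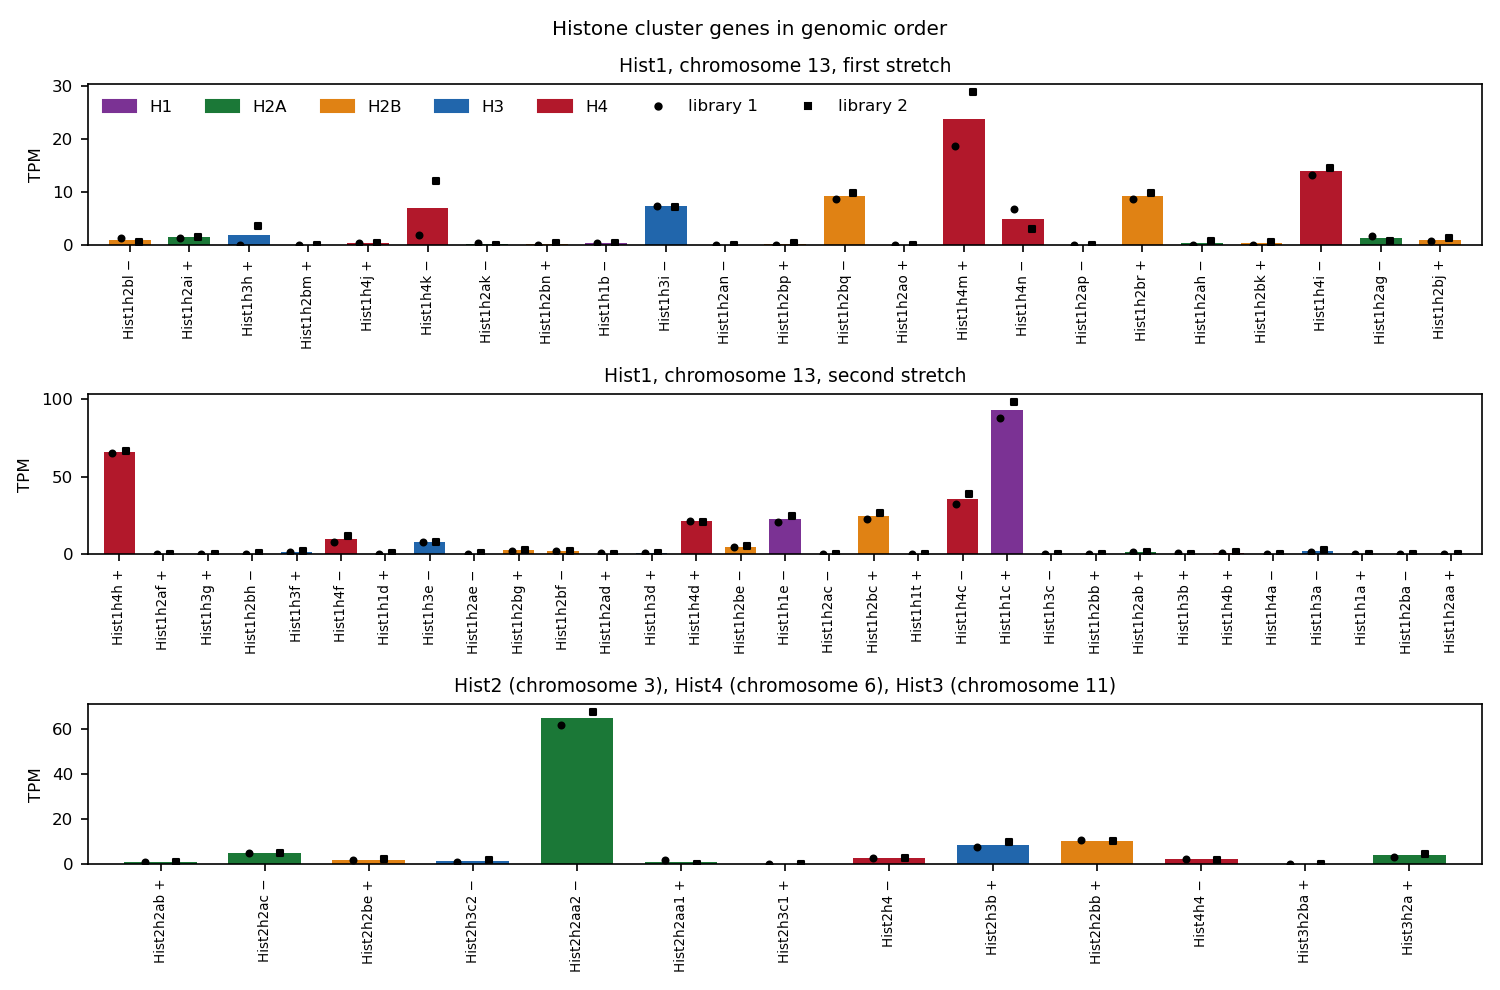
TPM of the members in genomic order, with mean bars coloured by class, library 1 as circles and library 2 as squares, and the strand after each name. High and near-zero genes stand beside each other in both stretches of Hist1, and by the first quantifier Hist2h2aa2 is the single high bar outside Hist1.

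Many H2A and H2B genes lie head to head, with a shared stretch between their starts. There were 12 such pairs with at most 500 bases between the annotated starts. In the pair Hist1h2ac and Hist1h2bc the starts are 251 bases apart, and Hist1h2ac had 0.28 and 0.53 TPM while Hist1h2bc had 22.7 and 26.6 TPM. In Hist2h2ac and Hist2h2be, 239 bases apart, both genes were detected, with 5.13 and 5.00 TPM for the H2A gene and 1.74 and 2.26 TPM for the H2B gene. That was the only pair of the 12 with both members at 1 TPM or more in each library. Of the other pairs, 6 had 1 such gene and 5 had none. Over the whole classes, 5 of 18 H2A genes and 8 of 18 H2B genes were at that level. Whether detection within pairs departs from these shares was not tested.

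The stretch between Hist1h2ac and Hist1h2bc is shown because its ends had such different levels. The RefSeq window of Hist1h2ac (GRCm38.p6, chr13:23683910-23684209, - strand) covers it whole, and the annotated start of Hist1h2bc lies within the first bases printed, on the opposite strand. The window of Hist1h1c (chr13:23738557-23738856, + strand), the highest member by the first quantifier, is given beside it. Each window runs from 250 bases before to 50 bases after the RefSeq start. Capitals mark matches on either strand to CCAAT, to the TATA box letters TATAAA, to the octamer ATTTGCAT and to the H1 box AAACACA.
Hist1h2ac: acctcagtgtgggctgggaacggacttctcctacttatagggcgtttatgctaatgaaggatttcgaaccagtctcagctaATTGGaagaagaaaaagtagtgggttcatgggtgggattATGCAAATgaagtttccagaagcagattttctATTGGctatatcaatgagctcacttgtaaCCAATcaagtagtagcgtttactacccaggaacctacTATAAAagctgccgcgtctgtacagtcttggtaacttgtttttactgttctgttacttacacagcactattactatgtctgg
Hist1h1c: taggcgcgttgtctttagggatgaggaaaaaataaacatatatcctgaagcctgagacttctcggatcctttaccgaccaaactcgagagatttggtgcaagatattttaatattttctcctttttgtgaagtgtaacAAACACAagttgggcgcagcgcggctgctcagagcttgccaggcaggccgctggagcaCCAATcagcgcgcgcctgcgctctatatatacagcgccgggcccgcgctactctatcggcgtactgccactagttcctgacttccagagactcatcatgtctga

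RefSeq windows were found for 62 of the 67 members. CCAAT was in 85.5% of these, against 37.4% of all 32851 windows in the RefSeq table, and was present in each window of the H1, H2A, H2B and H3 genes but in 3 of 12 windows of H4 genes. TATAAA was in 56.5% of the members' windows, against 13.6% of all windows. Matches on either strand count, so the same TATAAA can count for both genes of a head-to-head pair. In the windows of Hist1h2ae, Hist1h2bf, Hist1h2bk, Hist1h2bn and Hist1h2bp the only TATAAA match lies on the opposite strand. The octamer was in 20.97% of the members' windows, all of them H2A or H2B genes, against 1.74% of all windows. The H1 box was in 5 of the 6 H1 windows and in 14.5% of the members' windows, against 7.18% of all windows. The 53 members with CCAAT had a median of 0.56 TPM and the 9 without it, all of them H4 genes, 6.96 TPM. The median was 0.495 TPM with TATAAA and 1.34 TPM without it, 0.405 TPM with the octamer and 1.09 TPM without it, and 0.25 TPM with the H1 box and 1.09 TPM without it. Motif and histone class go together here, so their parts in these levels cannot be told apart. These are matches of letters, and no binding was measured.

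Because copies share sequence, each member's transcripts were cut into all stretches of 101 bases, a read length taken from the 100 bases by which the first quantifier's effective lengths fall short of the annotated ones, and compared with all other transcripts. Of the 67 members, 42 had at least 50% of their stretches in no other gene, 25 had less, and 2 had none. Only 7 were unique throughout. Members under 50% unique held 28.8% of the members' TPM in library 1 and 30.6% in library 2. Where the first quantifier gave at least 10 counts in library 1, its own posterior SD was a median of 39.8% of the count over the 16 members under 50% unique, and 1.76% over the 24 others.

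Between the quantifiers, 40 members had a mean of at least 1 TPM in one or the other and 12 of them, or 30%, differed by at least 2-fold on the log2(TPM + 0.1) scale, against 1.62% of 10301 protein-coding genes. Of the 12, 6 were higher in the first quantifier and 6 in the second. Members under 50% unique made up 9 of the 12, out of 15 compared, and the more unique members 3, out of 25 compared. The median absolute log2 difference was 0.64 for the members and 0.12 for the protein-coding genes.

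**Figure D4:**
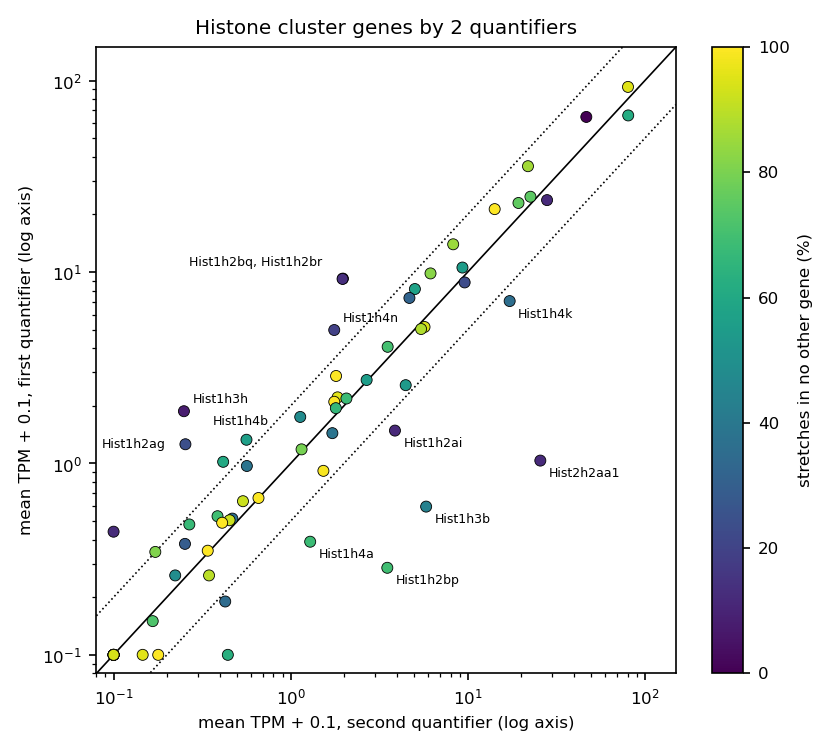
Mean TPM + 0.1 of the 67 members by the first quantifier (vertical) against the second (horizontal), both on log axes, coloured by the percent of 101-base stretches found in no other gene; the solid line marks equal values and the dotted lines 2-fold. Names are given for the 12 members that differ by 2-fold among the 40 with a mean of at least 1 TPM in either, and they include dark, little-unique points such as Hist2h2aa1 and Hist1h3h as well as Hist1h2bp, with 69.1% of its stretches unique.

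The largest of these differences concerns the leading H2A locus. Hist2h2aa1 (chr3:96245497-96246082, + strand) and Hist2h2aa2 (chr3:96239749-96240276, - strand) are an inverted duplicate, and the 528 bases of the Hist2h2aa2 transcript are identical in Hist2h2aa1, which has 58 more bases at its 5′ end. The first quantifier gave Hist2h2aa1 1.87 TPM in library 1 and 0 TPM in library 2, while the second gave it 22.3 and 29.0 TPM. For Hist2h2aa2 the first quantifier gave 61.7 and 67.5 TPM, and the second 45.4 and 47.9 TPM. The sum of both genes was 63.5 and 67.5 TPM by the first quantifier and 67.7 and 76.9 TPM by the second. The sums by the 2 quantifiers thus lay closer together than the values of either gene. Upstream, their RefSeq windows hold a shared run of 219 identical bases, offset by 40 bases.

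Hist1h2bq and Hist1h2br each have a 381-base transcript, and these are identical. The first quantifier gave 8.58 and 9.71 TPM to Hist1h2bq and 8.54 and 9.68 TPM to Hist1h2br, nearly all of it on those transcripts, with posterior SDs of 52.2% to 56.1% of the count. The second quantifier gave 2.45 and 1.30 TPM to Hist1h2bq and 2.43 and 1.30 TPM to Hist1h2br. Here the sum differed as well, at 17.1 and 19.4 TPM by the first quantifier and 4.87 and 2.60 TPM by the second. Hist1h2bp, another H2B gene that shares stretches with them, went the other way, with 0 and 0.37 TPM by the first quantifier and 2.50 and 4.33 TPM by the second. The 3 genes together still differed, with 17.1 and 19.8 TPM by the first quantifier and 7.38 and 6.93 TPM by the second.

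Among the H4 and H3 genes, some copies were higher by the first quantifier and others by the second. Hist1h4k had 1.87 and 12.04 TPM by the first quantifier and 9.99 and 24.3 TPM by the second. Hist1h4n had 6.73 and 3.03 TPM by the first and 0.963 and 2.36 TPM by the second. Hist1h3b had 0.99 and 0 TPM by the first and 4.97 and 6.49 TPM by the second, and Hist1h3h 0 and 3.55 TPM by the first and 0 and 0.299 TPM by the second. The 9 H3 genes of Hist1, which all share stretches, summed to 20.5 and 24.7 TPM by the first and 18.5 and 22.6 TPM by the second. The other 4 genes past 2-fold were Hist1h2ag and Hist1h4b, higher by the first quantifier, and Hist1h2ai and Hist1h4a, higher by the second, with mean TPM of at most 1.39 by the first and at most 3.78 by the second.

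When members that share any 101-base stretch were summed, they fell into 16 groups, 11 of them of 1 gene. Of the 11 groups with at least 1 TPM, 0 differed by 2-fold between quantifiers, against 12 single members. These 11 include Hist1h4d, Hist2h2bb, Hist2h2be, Hist2h4, Hist3h2a and Hist4h4, each a group of 1 gene, whose values are not sums. Other groups are wide: 15 of the 18 H2B genes and the H1 genes Hist1h1c, Hist1h1d and Hist1h1e fall into 1 group of 18. It is joined because the annotated exons of Hist1h1e and Hist1h2be overlap by 496 bases on the same strand. That group is led by Hist1h1c, so its sum says little of Hist1h2bq and Hist1h2br.

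Between the libraries, 39 members had a summed count of at least 20, and 7 of them, or 17.9%, were at least 2-fold apart after TMM scaling, against 2.72% of 12594 protein-coding genes. With library 2 over library 1, the log2 ratio had a median of 0.06 over the members and 0.01 over the protein-coding genes. Of the 7, 4 were higher in library 2 and 3 in library 1, and 5 were under 50% unique, out of 14 such members compared, against 2 of 25 more unique ones. The 2 were Hist1h4b, with 6.16 and 13.9 counts, and Hist1h2bh, with 15.4 and 31.1 counts. The log2 interval of Hist1h4b was -0.21 to 2.93 and spans 0, and that of Hist1h2bh was 0.15 to 2.08.

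The counts of the other 5 were small and their posterior SDs large. Hist1h4k had 12.1 counts in library 1 and 67.1 in library 2, with a posterior SD of 13.9 and 21.7 counts. Hist1h4n had 67.5 and 26.3 counts, the opposite direction, and Hist1h2ag 18.3 and 7.67 counts. The log2 interval of Hist1h2ag was -2.54 to 0.14 and spans 0. Those of Hist1h4k, at 1.62 to 3.54, and Hist1h4n, at -2.06 to -0.68, do not. Hist1h3h had 0 counts in library 1 and 29.0 in library 2, with posterior SDs of 5.07 and 12.8 counts. For Hist2h2aa1 the counts were 27.7 in library 1 and 0 in library 2, with posterior SDs of 20.7 and 11.8 counts, so no fold is given for either gene. Summed with Hist2h2aa2, the pair had 830 and 759 counts, a log2 ratio of -0.09 with an interval of -0.23 to 0.05. When members that share stretches were summed, 0 of 11 groups with enough counts were 2-fold apart. These 11 include Hist1h4d and the other single-gene groups named above, which share no stretch with another member. Of the 24 members with a summed count of at least 100, 0 were 2-fold apart.

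**Figure D5:**
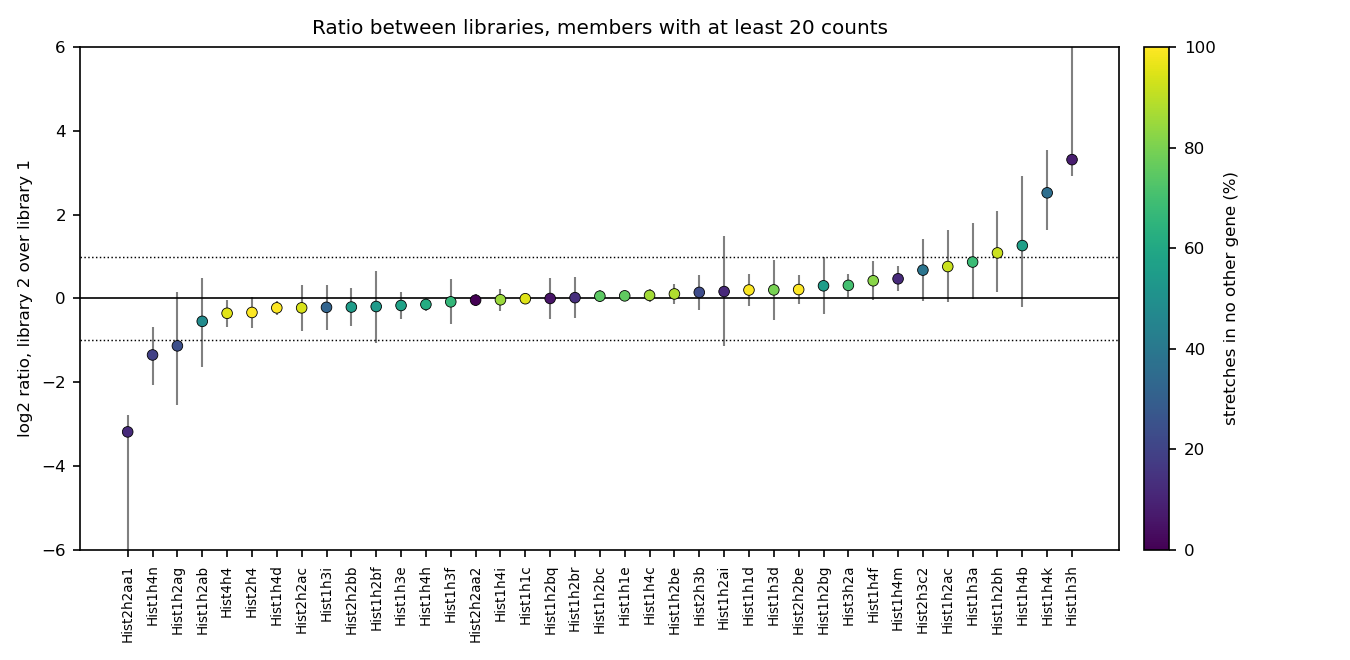
Log2 ratio of library 2 over library 1 for the 39 members with a summed count of at least 20, after TMM scaling, with 95% exact binomial intervals that cover counting error only, coloured by the percent of stretches in no other gene; a library at 0 counts is drawn at 3 counts, and a bar that reaches the edge has no upper or lower limit. The 7 members at or beyond the dotted 2-fold lines lie at the ends, and the others lie within 1 log2 unit of 0.

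The quantifiers also treat short transcripts differently. The first quantifier took 100 bases off each member's length to set its effective length, and the second took off about 228 bases in library 1 and 231 bases in library 2 for longer transcripts. For the shortest member, Hist1h4k with 312 bases, the effective lengths were 212 bases by the first quantifier and 101 and 106 bases by the second. For equal counts the second quantifier therefore gives a higher TPM to a short histone gene. For Hist1h4k the counts were 12.1 and 67.1 by the first quantifier and 39.1 and 84.3 by the second.

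Gene models bear on these levels too. In 23 members the model runs more than 100 bases past the stem-loop, and these held 44.6% ± 0.477 of the members' TPM and 70.2% ± 0.086 of their counts (SD, n = 2 each). Hist1h1c has 840 annotated bases after its stem-loop, and Hist1h1e 1153. In 23 other members the model ends within 100 bases of the stem-loop, and these held 38.2% ± 1.15 of the TPM. The 13 members with no model past the stop codon held 6.1% ± 1.29, and reads from beyond the annotated end could not be given to them. The 8 models that pass the stop codon without the stem-loop letters, led by Hist1h2bc, held 11.1% ± 0.336. These 8 were sorted by their longest models and include Hist1h2bq and Hist1h2br, whose TPM lay almost wholly on 381-base transcripts that end at the stop codon. The files hold no read positions, so where along these models the reads lay was not measured.

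Most members have a single transcript, 62 of 67. Of the others, Hist1h2be had 71.8% of its first-quantifier level in library 1 and 68.2% in library 2 on a transcript annotated as processed rather than protein-coding, and its protein-coding transcripts had 1.26 and 1.72 TPM. Transcripts of other genes overlap some members. Gm20634, a noncoding entry on the same strand that covers all of Hist2h3c1 and 90.3% of Hist2h2aa1, had 159 and 181.2 counts, while Hist2h3c1 had 0 in both libraries by both quantifiers and no stretch of its own. Antisense entries over the Hist2 genes were low, with Gm20632 at 13.2 and 20 counts, Gm20633 at 7.81 and 12 counts and Gm20628 at 6 counts in each library.

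No RNA was assigned to some members. There were 10 with 0 counts in both libraries by the first quantifier, and 7 of those also by the second. The 7 were Hist1h1t, Hist1h2an, Hist1h2ao, Hist1h2ap, Hist1h2ba, Hist1h2bm and Hist2h3c1. For Hist1h2an, Hist1h2ao, Hist1h2ap and Hist2h3c1 at most 16.7% of the stretches were unique, so an absence of their RNA and an assignment of shared reads to other copies cannot be told apart. For Hist1h1t, Hist1h2ba and Hist1h2bm at least 72.9% were unique. Hist1h3g had 0 by the first quantifier and 4.90 and 2.58 counts by the second.

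Genes that make or handle histone RNA and protein were read from lists drawn up from their known roles. Of 14 symbols listed for transcription and 3′ processing of histone messages, 13 were found, and Symplk, as written in the list, matched no entry. Of these 13 genes, 12 were detected in both libraries. The exception was Zfp473, which had 0.05 TPM in library 1 and 0 in library 2. Slbp, the stem-loop binding protein, had 2.15 and 2.81 TPM, Npat, the coactivator of histone genes at S phase entry, 2.16 and 2.32 TPM, and the U7 particle proteins Lsm10 and Lsm11 3.30 and 4.29 TPM and 1.16 and 1.07 TPM. Of 12 histone chaperones, 9 were detected. The 3 that were not are Chaf1a and Chaf1b, subunits of the assembly factor that works at replication forks, with means of 0.465 and 0.11 TPM, and Asf1b with 0.07 TPM. Hira, which places the replacement H3, had 8.34 and 11.9 TPM.

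Among 14 S phase and proliferation genes, 2 were detected in both libraries, Pcna, the sliding clamp of replication, with 7.92 and 9.12 TPM, and Mcm2, a helicase subunit, with 3.59 and 2.41 TPM. Closest below were the helicase subunits Mcm3, with 0.97 and 1.15 TPM, and Mcm6, with 0.82 and 0.99 TPM. Mki67 had 0.01 and 0.03 TPM, and Top2a 0.01 and 0.13 TPM. The 67 histone cluster genes summed to 456 and 519.9 TPM in the same libraries, and how much of that RNA came from dividing cells was not tested.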

How the data were processed

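The authors assigned reads to mm10 with the GENCODE M21 annotation, per the deposited read-me, and deposited expected counts and TPM per gene and transcript and, per transcript, the percent of a gene's level on it. Expected counts are the authors' estimates of reads per gene with shared reads divided among copies, per the file headers. The deposited values come in 2 sets, called the first quantifier (gene and transcript tables with posterior values) and the second quantifier (a transcript table, summed here per gene). No label or header used here names either program. Expected counts were rounded and scaled with TMM in edgeR 4.0.16 (R 4.3.3), without a count model because 1 group of 2 libraries allows no test. Intervals are 95% exact binomial intervals, and a library at 0 counts was set to the floor of 3 counts. The scaling and the library ratios were tested on simulated counts, in which genes share no reads. Sequences came from GENCODE M21 transcripts and from RefSeq (GRCm38.p6), and differences of the Cast genome from mm10 were not analysed here. Members, gene lists and thresholds were chosen with earlier results of these data known. Genes named with values were the 15 highest by mean TPM, every member past 2-fold between quantifiers or libraries, and Hist1h1t, Hist1h2aa, Hist1h2ba, Hist4h4, Hist3h2a and Hist3h2ba; other members are named where a class, pair, cluster or count of 5 or fewer needed them, after their values were seen. Alternatives covered the quantifier, scaling (including DESeq2 1.42.0), thresholds, transcripts summed, length correction and each library left out. Protein sequences are not printed.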

Additional observations from a re-analysis of the deposited data

Results flagged for a closer look

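Of the 3 pseudogene entries left out of the members, 2 carried counts, and Hist1h2aj had 0 in both libraries by both quantifiers. Hist1h2al, annotated as a processed pseudogene, had 92.76 expected counts in library 1 and 104.44 in library 2 by the first quantifier, above the 3 counts that a count of 0 allows, and 0 in both by the second quantifier. It shares 101-base stretches with Hist2h2aa1, Hist2h2aa2 and Hist2h2ac. With Hist1h2al added, Hist2h2aa1 and Hist2h2aa2 summed to 76.3 and 84.1 TPM by the first quantifier and 67.7 and 76.9 TPM by the second. Hist3h2bb-ps had 6 and 8 expected counts in libraries 1 and 2 by the first quantifier and 5.07 and 8.96 counts by the second.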

How the results depend on the processing

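Without correction for length (expected counts), the members summed to 323.2 CPM. In these counts the class shares were 45.5% for H1, 10.4% for H2A, 13.4% for H2B, 4.48% for H3 and 26.2% for H4. The cluster shares were 84.6% for Hist1, 11.9% for Hist2, 2.02% for Hist3 and 1.47% for Hist4. The 5 members highest in counts, with Hist1h1e in place of Hist1h4h, held 64.2%. With TPM rescaled to nuclear protein-coding genes alone, the sum was 1165 TPM. By the second quantifier, H1 held 21.9%, H2A 19.5%, H2B 11.9% and H4 39.8%, and Hist1 76.4% and Hist2 22.5%, each farther from the reported share than the SD of the libraries. With protein-coding transcripts alone, H1 held 24.1% and H2B 13.5%. The median log2 ratio between the libraries was 0.22 on deposited TPM, where the median of all protein-coding genes was 0.17, -0.015 on spike-in totals and -0.0023 with a summed count of at least 100. With that minimum, 0 members were 2-fold apart. With the minimum of 20, 0 of the sums over members that share stretches were apart, with single-gene groups counted among them. Of members at least 50% unique, 2 were apart and the quantifiers differed for 3. The quantifiers differed for 5 members with a mean of at least 5 TPM, and for 0 of the sums, single-gene groups included. The sums and the uniqueness limit were chosen after the data were seen. Leaving out 1 library, 33 to 35 members were detected, the sum was 456 to 519.9 TPM and the quantifiers differed for 10 members. Among 32 named members, the second quantifier moved 23 by more than the SD of the libraries. The same share over all protein-coding genes was not computed, so whether 23 of 32 is particular to histone genes was not tested. An SD of 2 libraries can be near 0, as for Hist1h3e at 0.035 TPM. The named members also take in every member whose quantifiers differ by 2-fold. Apart from the fewer members compared under stricter limits, the cause of these changes was not tested. No paired analysis was possible because there was 1 group. The median ratio changed sign, and the ratio of summed counts has an interval that includes 0. In counts, H1 and H4, and H2A and H2B, change places, and by the second quantifier Hist1h4h has the highest mean. Depth limits members with few counts, and read sharing was not resolved for members with few unique stretches.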
